A study of Mus musculus with 38 samples.

Results

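The comparison asks what the GSK3 inhibitor added to mouse embryonic stem (ES) cells that already received a MEK inhibitor. It used 6 of the 38 samples of the series, taken by their labels: 3 RNA libraries of 2i/L against 3 of MEKi/L, all at 8 days. The cells were E14, a male ES line of 129/Ola origin, grown on gelatin without feeder cells. They were plated in serum medium with leukaemia inhibitory factor (LIF), moved the next day into the test medium and passaged every 2 days. Both media were serum-free N2B27 with LIF and 1 µM of the MEK inhibitor that the labels spell PD03259010. In 2i/L, CHIR99021, which inhibits GSK3, was present as well at 3 µM; MEKi/L had no GSK3 inhibitor. In all, 14 RNA libraries in 5 groups were deposited with 24 bisulfite samples, which were not analysed here. The other RNA groups were GSK3i/L (N2B27, LIF and CHIR99021 alone) at 8 and at 24 days, and S/L (serum and LIF) at 8 days. No library came from N2B27 with LIF and neither inhibitor, so the effect of GSK3 inhibition with and without the MEK inhibitor could not be set against each other in 1 medium. The labels speak of biological triplicates and do not say whether these were separate cultures, so p-values measure the spread between libraries only. That spread was taken over all 14 RNA libraries. These include the 6 columns of GSK3i/L at 8 days and S/L, which the authors had matched to 1 shared distribution.

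GSK3 marks the transcriptional coactivator beta-catenin for destruction, in a complex built on Axin and Apc. When the kinase is inhibited, beta-catenin accumulates, switches on Wnt target genes with TCF and LEF factors, and relieves repression by Tcf7l1 at genes of the naive pluripotent state. GSK3 also restrains glycogen synthase and many other proteins. MEK activates ERK, which drives ES cells out of the naive state towards the formative and primed states. Naive cells in both inhibitors are known for low levels of the enzymes that add new DNA methylation. All of this is background and not a result of these libraries.

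The deposited values were log2 RPM (reads per 1000000 reads), and totals for the 6 libraries were 10551735 to 15757820 reads, read from the steps in the values. RPM is not corrected for transcript length, so levels are compared between media and not between genes. Within 2i/L the libraries correlated at 0.984 to 0.987. Within MEKi/L, replicate 1 stood apart: it correlated at 0.965 and 0.969 with the other replicates, which correlated at 0.983 with each other. The mean log2 level of 40 genes with very long transcripts (such as Ahnak and Dst) minus that of 45 genes with short ones (mostly of the respiratory chain) was 0.02, 0.15 and 0.19 in 2i/L, against 0.41, −2.21 and −1.79 in MEKi/L. Ribosomal protein genes summed to between 36590 and 37400 RPM in 2i/L, and to 35370, 74940 and 64470 RPM in MEKi/L. Their 51 members had a median log2 difference of −0.54. No ribosomal or short-transcript gene passed the test described below, and 1 of 39 long ones did. Without replicate 1 of MEKi/L, 33 of the 51 ribosomal genes and 29 of the 45 short ones were lower in 2i/L, 27 of the 39 long ones were higher, and the 3 medians were −0.81, −1.13 and 1.04. On this score and on the ribosomal sum, MEKi/L replicate 1 lay nearer to 2i/L than MEKi/L replicates 2 and 3 did. A fit without replicate 1 therefore cannot tell the score and the medium apart. Counts are given with and without that library. For the gene lists below, a count adjusted for the score is given where it differed by over 1.5 times in a direction. The part of transcript length in the results was not tested further. In bulk RNA, fewer cells that express a gene and less RNA per cell cannot be told apart.

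With the GSK3 inhibitor added, a few Wnt targets and posterior genes were higher by large factors, and Tfcp2l1, Kit and some enzymes of methionine metabolism were higher too. Of 21 formative and primed genes 13 were lower, as were Dnmt3l, Dnmt3a and the type IV collagen genes Col4a1 and Col4a2. Of 14980 genes tested, 479 were at least 2-fold higher in 2i/L (3.2%) and 793 at least 2-fold lower (5.29%), at an adjusted p under 0.05 (limma, Benjamini-Hochberg over all genes tested). With no minimum fold, 1020 genes were higher (6.81%) and 916 lower (6.11%). Those are the shares against which counts in gene lists below are set. Without replicate 1 of MEKi/L, 2320 genes were higher (15.5%) and 1642 lower (11%). Adjusted for the score, 961 were higher (6.42%) and 1076 lower (7.18%). At 2-fold, leaving out MEKi/L replicate 1 gave 868 higher and 1323 lower genes. Leaving out MEKi/L replicate 3 gave 297 higher, and leaving out MEKi/L replicate 2 gave 466 lower. The lowest 2i/L library lay above the highest MEKi/L library for 3246 genes (21.7%), and the highest 2i/L library lay below the lowest MEKi/L library for 2413 (16.1%).

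The balance of the 2 directions depended on scaling. Of the genes past 2-fold, 37.7% were higher in 2i/L in the values as deposited, 26.9% after centring each library on its median, 28.7% after trimmed mean scaling and 49.3% after quantile normalization. The log2 median of all genes was 0.07 as deposited and −0.06 after centring. None of the 1272 genes past 2-fold turned its sign under any of the 19 alternatives run. The alternatives reuse the libraries that chose these genes, so a kept sign is not independent support. A gene said below to hold kept its call in each of them, or in the 18 that tested it where a stricter filter on low values removed it. All 479 higher genes lay above MEKi/L replicate 1, which was itself in the fit that called them. Of these, 314 lay above it by at least 2-fold, against 470 by at least 2-fold relative to the mean of replicates 2 and 3. Of the 793 lower genes, 704 were at least 2-fold below MEKi/L replicate 1 and 767 below the mean of replicates 2 and 3.

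**Figure D1:**
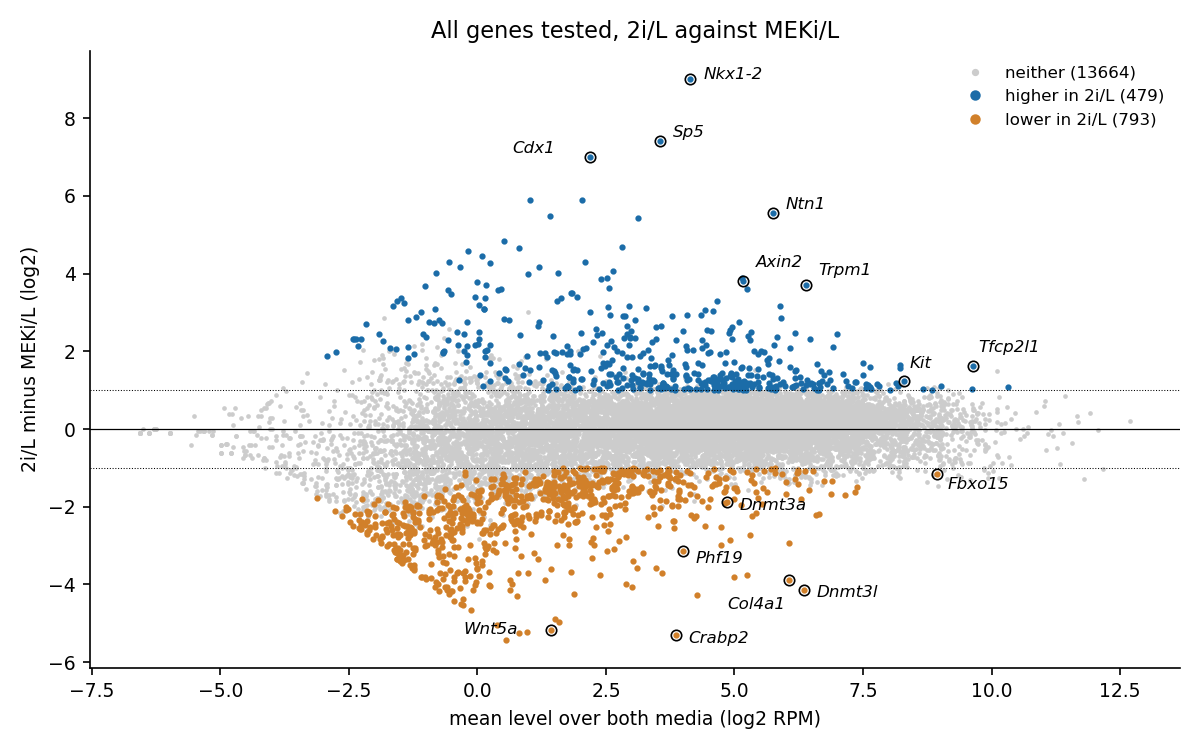
Each point is a gene tested, with its mean RPM over both media on the x axis (log2) and its difference, 2i/L minus MEKi/L, on the y axis (log2); dotted lines mark 2-fold and 44 of the 14980 genes with 0 reads in all 6 libraries are not drawn. Genes that passed and reached 2-fold are coloured, 479 higher and 793 lower, and the highest points are Nkx1-2, Sp5 and Cdx1.

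Among genes that reached 5 RPM, the largest fitted log2 difference was that of Nkx1-2, a homeobox gene of the posterior embryo (chr7:132594877-132599637, GRCm38, minus strand). It had 33.9, 38.7 and 33.3 RPM in 2i/L and 0 reads in each MEKi/L library. The groups did not overlap, and with a floor of 3 reads per library Nkx1-2 was at least 153-fold higher in 2i/L. Its rank rests on counting 0 reads as 0.9 of a read, and this bound does not order it against Sp5 or Cdx1. Ntn1, which encodes the guidance molecule netrin-1, had 121, 103 and 90.1 RPM in 2i/L against 3.11, 0.86 and 3.89 RPM in MEKi/L. Its log2 difference was 5.57 ± 0.45 (SE, limma adjusted p = 6.2e-06). Calb2, the calcium-binding protein calretinin, had 48.3, 65.8 and 85.7 RPM in 2i/L against 4.25, 5.04 and 3.89 RPM in MEKi/L, and Trpm1, a cation channel gene, averaged 155 ± 15.4 RPM in 2i/L and 12.0 ± 2.63 RPM in MEKi/L (SD, n = 3 each). The rest of the 15 largest rises among genes that reached 5 RPM, other than the Wnt targets below, were Serpinb6b, Lhfpl2, Pdzrn3, Rerg, Ccbe1, S1pr1, Tnni1 and Cttnbp2, with log2 differences of 3.64 to 5.91. S1pr1, a receptor for the lipid sphingosine-1-phosphate, had 8.61, 11.5 and 11.8 RPM in 2i/L against 0.44, 0.94 and 0.85 RPM in MEKi/L.

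The 15 largest falls were led by Crabp2, which carries retinoic acid in the cell. It had 1.07, 0.40 and 0.86 RPM in 2i/L against 25.1, 28.9 and 30.6 RPM in MEKi/L, a log2 difference of −5.30 ± 0.38 (limma adjusted p = 1.8e-06). Of the others, Crmp1 and Dpysl4 encode collapsin response mediators, Ctnna2 is the neuronal alpha-catenin, and Calca encodes the calcitonin and CGRP peptides. Crmp1 averaged 4.36 ± 1.97 RPM in 2i/L and 58.8 ± 22.03 RPM in MEKi/L, and Dpysl4 averaged 0.95 ± 0.46 RPM in 2i/L and 13.9 ± 0.31 RPM in MEKi/L (SD, n = 3 each). Ctnna2 had 0.08, 0.40 and 0.20 RPM in 2i/L against 4.82, 6.55 and 5.88 RPM in MEKi/L. The other genes of this set were Wnt5a, Aire, Gstt1, Dnmt3l, Col5a3, Col4a1, Ppp1r16b, Enox1, Lmx1b and Prmt8. All 30 of these genes kept their call in each of the 19 alternatives, with replicate 1 of MEKi/L left out as well. Aire lies head to head with Dnmt3l and overlaps it on the other strand. Whether reads were counted by strand is not given in the sources used here, so their reads cannot be told apart.

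Among 28 Wnt/beta-catenin target and feedback genes, 26 were tested. In 2i/L, 8 rose, 2 fell and 16 did not pass, with a median log2 difference of 0.50 against 0.07 for all genes. Axin2, a scaffold of the destruction complex that Wnt signalling itself induces, had 57.0, 76.3 and 67.7 RPM in 2i/L against 6.28, 3.60 and 4.74 RPM in MEKi/L. The lowest 2i/L library was far above the highest MEKi/L library, and the log2 difference was 3.81 ± 0.24 (limma adjusted p = 7.2e-07). Sp5, a zinc finger factor that Wnt signalling induces in embryos, had 17.2, 30.4 and 22.2 RPM in 2i/L against 0.38, 0 and 0.09 RPM in MEKi/L. Its log2 difference was 7.41 ± 0.54 (limma adjusted p = 1.8e-06), with a library of 0 reads counted as 0.9 of a read. Sp8, its close relative, was low throughout, at 0.97 ± 0.38 RPM in 2i/L and 0.15 ± 0.06 RPM in MEKi/L (SD, n = 3 each).

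Rnf43, a membrane ubiquitin ligase that removes Wnt receptors, had 71 reads in 2i/L and 1 read in MEKi/L, a ratio of 69.8 (exact interval 12.1 to 2800, counting error only). Tnfrsf19, a receptor of the TNF family, had 16.0, 20.1 and 24.7 RPM in 2i/L against 5.78, 4.75 and 7.01 RPM in MEKi/L, and its log2 difference was 1.79 ± 0.23 (limma adjusted p = 0.00022). The 2 members that fell were Lef1, a TCF/LEF factor, and Dact1, an intracellular Wnt modulator. Lef1 had 1.22, 1.19 and 0.86 RPM in 2i/L against 5.14, 1.87 and 2.37 RPM in MEKi/L, and Dact1 averaged 2.20 ± 0.50 RPM in 2i/L and 5.54 ± 0.15 RPM in MEKi/L (SD, n = 3 each). The 8 rises held, and the stricter filter on low values left 6 of them to be tested. Lef1 lost its call without 2i/L replicate 3, under quantile normalization (adjusted p = 0.058) and with voom; Dact1 lost it without 2i/L replicate 1, 2i/L replicate 3 or MEKi/L replicate 3.

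Widely used Wnt targets were among the 16 that did not pass. Ccnd1, cyclin D1, averaged 151 ± 7.52 RPM in 2i/L and 163 ± 43.9 RPM in MEKi/L, with adjusted p = 0.82 (limma). Notum, a secreted Wnt deacylase, averaged 51.5 ± 13.6 RPM in 2i/L and 42.4 ± 11.8 RPM in MEKi/L, and Nkd1, an intracellular antagonist, 1.25 ± 0.40 RPM in 2i/L and 1.20 ± 0.72 RPM in MEKi/L (SD, n = 3 each). Znrf3, the close relative of Rnf43, averaged 19.1 ± 3.42 RPM in 2i/L and 11.9 ± 3.50 RPM in MEKi/L, with overlapping groups. Without replicate 1 of MEKi/L, 11 of the 26 members rose and 3 fell, and adjusted for the score 8 rose and 4 fell. The count of falls was 0 without 2i/L replicate 3 and 1 without 2i/L replicate 1 or MEKi/L replicate 3.

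The 300-base windows around the start sites of Sp5, T and Axin2 are shown because these genes rose by large factors and differ in whether the window holds the TCF/LEF core letters CTTTGA. They run from 250 bases before the start to 50 after it, 5′ to 3′ on the strand of the gene (plus for all 3), from RefSeq on GRCm38.p6. Capitals mark CTTTGA or its reverse complement TCAAAG. Sp5 is at chr2:70474673-70474972, T at chr17:8434173-8434472 and Axin2 at chr11:108920099-108920398.
Sp5: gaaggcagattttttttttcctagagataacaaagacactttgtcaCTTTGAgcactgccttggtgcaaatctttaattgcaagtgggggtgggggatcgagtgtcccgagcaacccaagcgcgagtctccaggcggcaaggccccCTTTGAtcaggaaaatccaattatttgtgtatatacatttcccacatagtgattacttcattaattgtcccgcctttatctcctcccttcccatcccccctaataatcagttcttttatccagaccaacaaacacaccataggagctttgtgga
T: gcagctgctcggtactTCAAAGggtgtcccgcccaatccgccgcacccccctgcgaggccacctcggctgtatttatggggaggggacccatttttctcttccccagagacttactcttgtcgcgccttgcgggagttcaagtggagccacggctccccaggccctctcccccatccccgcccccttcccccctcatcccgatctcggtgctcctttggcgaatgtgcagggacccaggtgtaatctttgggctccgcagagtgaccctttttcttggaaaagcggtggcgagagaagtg
Axin2: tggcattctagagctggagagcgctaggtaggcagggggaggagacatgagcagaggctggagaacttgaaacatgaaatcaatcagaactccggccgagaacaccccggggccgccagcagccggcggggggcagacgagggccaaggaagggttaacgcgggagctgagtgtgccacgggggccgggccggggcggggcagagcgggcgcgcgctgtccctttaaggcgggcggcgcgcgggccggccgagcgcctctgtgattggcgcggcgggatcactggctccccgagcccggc

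The Sp5 window holds the letters at 204 and 104 bases before the start, both on the gene's strand, and the T window holds them 234 bases before the start on the other strand. The Axin2 window holds none, which says only that these letters are not in this window. Searched on both strands, CTTTGA was in 16.0% of all 32851 RefSeq windows and in at least 1 window of 14.2% of the 10130 genes tested that had one. It was in 18.7% of 315 genes at least 2-fold higher in 2i/L and in 11.5% of 511 genes at least 2-fold lower. Of the 7 Wnt targets that rose and had a window outside chromosome 18, 4 held it in at least 1 window. Of the Wnt targets that fell, Lef1 held it at 180 and 120 bases before the start in 1 window, and Dact1 did not hold it. Whether these letters bear on the changes was not tested.

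Most transcripts of the machinery that GSK3 acts in did not pass. Of 31 TCF/LEF factors, destruction complex members and cofactors, Axin2 rose, Lef1 fell and 29 did not pass, with a median log2 difference of 0.40. Ctnnb1, beta-catenin itself, had 952, 950 and 993 RPM in 2i/L against 1103, 823 and 769 RPM in MEKi/L, and the groups overlapped (log2 difference 0.12 ± 0.26, limma adjusted p = 0.77). Tcf7l1, the main TCF repressor of ES cells, averaged 148 ± 17.6 RPM in 2i/L and 168 ± 55.4 RPM in MEKi/L. Gsk3a averaged 97.2 ± 4.64 RPM in 2i/L and 66.4 ± 16.3 RPM in MEKi/L, and Gsk3b 114 ± 7.67 RPM in 2i/L and 76.9 ± 25.9 RPM in MEKi/L (SD, n = 3 each). Neither kinase passed (limma adjusted p = 0.11 and 0.14). Without replicate 1 of MEKi/L, 11 members of this list rose and 1 fell, and adjusted for the score 1 rose and 2 fell. The count of rises depended on the libraries in the fit. In a fit of the 6 libraries alone 4 rose and 1 fell, and with a replicate block 6 rose and 2 fell. With voom 4 rose and 0 fell, and in the 8 columns that the authors left plain 5 rose and 1 fell. A fit of 5 libraries, without MEKi/L replicate 1, gave 20 rises and 3 falls. Lef1 was lost without 2i/L replicate 3.

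**Figure D2:**
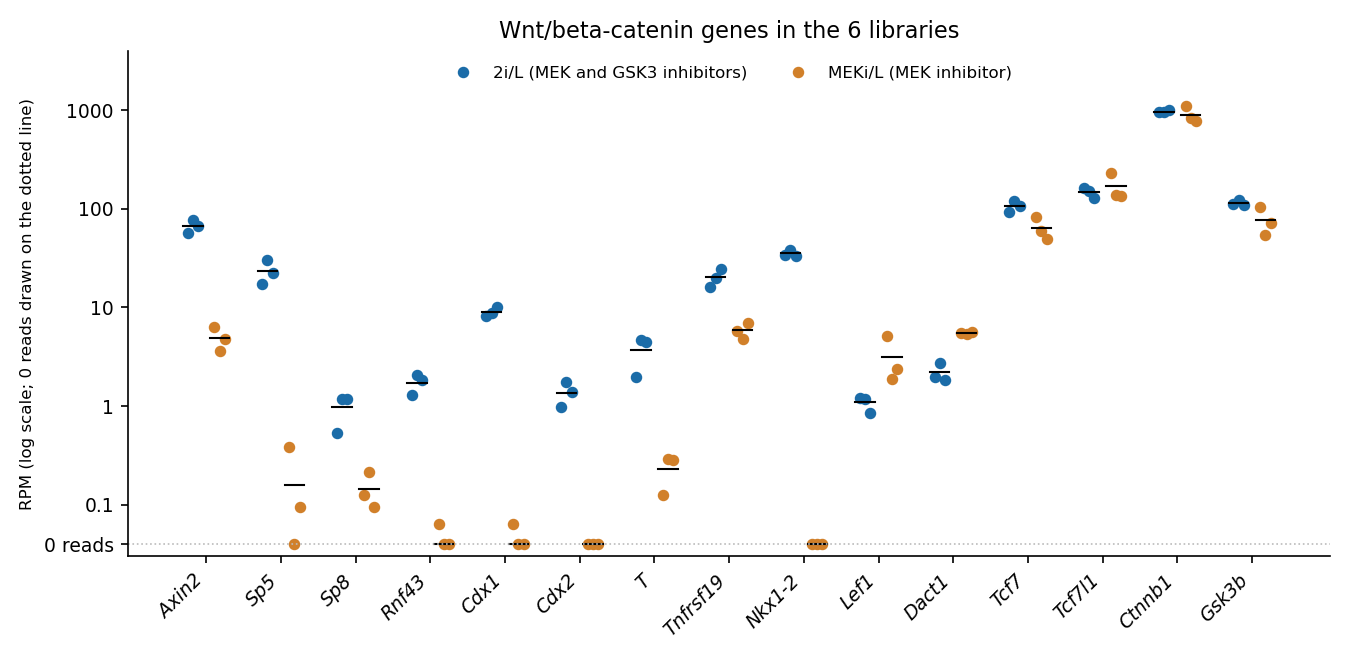
RPM on a log axis in each of the 3 libraries of 2i/L (left of each pair) and of MEKi/L, with short black lines at the means; libraries with 0 reads are drawn on the dotted line. Axin2, Sp5, Cdx1 and Nkx1-2 are separated by wide gaps, while the 2 groups of Ctnnb1 and of Tcf7l1 overlap.

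Among Wnt ligands, receptors and secreted antagonists, calls went both ways. Of 39 tested, 6 rose, 9 fell and 24 did not pass, with a median log2 difference of −0.09 that was −0.04 with genes at 0 reads in a group set to their bounds. Wnt5a, a ligand known mainly for beta-catenin-independent signalling, had 0.30, 0 and 0.13 RPM in 2i/L against 6.66, 3.74 and 5.40 RPM in MEKi/L. The log2 difference of Wnt5a was −5.17 ± 0.56 (limma adjusted p = 4.5e-05). Wnt5b, its close relative, averaged 2.26 ± 0.48 RPM in 2i/L and 0.11 ± 0.10 RPM in MEKi/L, and Wnt11, another ligand, 2.04 ± 0.99 RPM in 2i/L and 0.18 ± 0.16 RPM in MEKi/L (SD, n = 3 each).

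The ROR receptors, which bind Wnt5a, moved in opposite directions. Ror1 had 1 read in 2i/L and 107 reads in MEKi/L, so that MEKi/L held 109 times as much (exact interval 19.1 to 4340, counting error only). Ror2 had 36.4, 47.7 and 44.2 RPM in 2i/L against 6.22, 5.11 and 4.27 RPM in MEKi/L, a log2 difference of 3.05 ± 0.29 (limma adjusted p = 1.9e-05). Sfrp5, a secreted antagonist, averaged 0.17 ± 0.16 RPM in 2i/L and 2.94 ± 0.60 RPM in MEKi/L (SD, n = 3 each), and Rspo2, an R-spondin that enhances Wnt signalling, had 1 read in 2i/L and 44 reads in MEKi/L. Of the 15 calls, 9 held, and these include all the genes just named. The counts were 7 and 10 without MEKi/L replicate 1, while 5 rose and 6 fell without MEKi/L replicate 2.

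A few posterior and primitive streak genes rose. Of 30 members, 18 were tested: 5 rose, 1 fell and 12 did not pass, with a median log2 difference of 0.45. T, Cdx1 and Cdx2 are also in the Wnt list, and without MEKi/L replicate 1 the counts were 4 and 1. Cdx1, a posterior homeobox gene, had 8.23, 8.77 and 10.2 RPM in 2i/L against 0.06, 0 and 0 RPM in MEKi/L. With 373 reads against 1 read, the ratio of 2i/L to MEKi/L was 367 (exact interval 65.4 to 14500). Cdx2, its relative, which also marks trophoblast, had 0.99, 1.74 and 1.39 RPM in 2i/L and 0 reads in MEKi/L, at least 5-fold higher. T (brachyury), the factor that defines early mesoderm, had 1.98, 4.66 and 4.496 RPM in 2i/L against 0.13, 0.29 and 0.28 RPM in MEKi/L (log2 difference 3.99 ± 0.54, limma adjusted p = 0.00028). The streak factors Mixl1, Mesp1, Evx1 and Tbx6 and the streak ligands Wnt3a and Wnt8a stayed under 0.5 RPM in all 6 libraries, and Msgn1 and Hoxb1 had 0 reads. Gsc passed here and lost its call under 11 of the alternatives, and Isl1, the member that fell, lost it without 2i/L replicate 3.

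Most naive genes did not pass. All 20 naive genes were tested: 5 rose, 2 fell and 13 did not pass, with a median log2 difference of 0.32. Tfcp2l1, a naive factor downstream of LIF and of Tcf7l1, had 1166, 1157 and 1250 RPM in 2i/L against 559, 297 and 347 RPM in MEKi/L. Every 2i/L library was above every MEKi/L library (log2 difference 1.63 ± 0.35, limma adjusted p = 0.0076). Gbx2, a homeobox gene downstream of LIF, averaged 12.5 ± 2.04 RPM in 2i/L and 1.71 ± 0.54 RPM in MEKi/L (SD, n = 3 each; log2 difference 2.91 ± 0.26, limma adjusted p = 1.3e-05). Klf4, a Krüppel-like factor, averaged 396 ± 13.4 RPM in 2i/L and 187 ± 44.7 RPM in MEKi/L, and lost its call only without MEKi/L replicate 3 among the 19 alternatives.

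Of the 8 genes listed as repressed by Tcf7l1, Tfcp2l1 and Nr5a2 passed. Nr5a2, a nuclear receptor, averaged 112 ± 10.6 RPM in 2i/L and 61.7 ± 20.3 RPM in MEKi/L, and lost its call without any single library other than MEKi/L replicate 1 and under centring, trimmed scaling, quantile normalization or the score covariate. Esrrb, the nuclear receptor best known as a Tcf7l1 target, had 823, 721 and 848 RPM in 2i/L against 662, 376 and 447 RPM in MEKi/L. The groups did not overlap, but Esrrb did not pass (log2 difference 0.73 ± 0.32, limma adjusted p = 0.14). Nanog averaged 724 ± 47.2 RPM in 2i/L and 807 ± 80.9 RPM in MEKi/L (SD, n = 3 each), also without a call. Without MEKi/L replicate 1, 8 naive genes rose and 2 fell. Leaving out MEKi/L replicate 3 gave 2 rises, and leaving out 2i/L replicate 2 or 3 or MEKi/L replicate 2 gave 3, each with 1 fall. The members of the naive list that fell were Rex2, a zinc finger gene, at 1.31 ± 0.12 RPM in 2i/L and 5.97 ± 0.77 RPM in MEKi/L, and Fbxo15, an F-box gene of ES cells, at 303 ± 24.2 RPM in 2i/L and 680 ± 136 RPM in MEKi/L (SD, n = 3 each). Fbxo15 lost its call without 2i/L replicate 2 or 3, or MEKi/L replicate 2 or 3.

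General pluripotency genes matched the label of ES cells. Pou5f1 (Oct4) had 1169, 1080 and 1111 RPM in 2i/L against 1069, 1323 and 1204 RPM in MEKi/L, and Sox2 averaged 684 ± 43.1 RPM in 2i/L and 622 ± 113 RPM in MEKi/L (SD, n = 3 each). Neither passed. Of 13 members, 0 rose and 2 fell (3 without MEKi/L replicate 1, 4 after centring or trimmed scaling and 6 adjusted for the score): Utf1, a chromatin factor of ES cells, at 60.7 ± 20.4 RPM in 2i/L and 154 ± 53.4 RPM in MEKi/L, and Dppa4, at 31.5 ± 3.54 RPM in 2i/L and 53.5 ± 4.71 RPM in MEKi/L. Utf1 lost its call without 2i/L replicate 2 or 3, and Dppa4 without either of those or without MEKi/L replicate 2 or 3.

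Formative and primed genes were the list with the lowest median among those described here. Of 21 tested, 13 fell, 1 rose and 7 did not pass, with a median log2 difference of −1.43. Without replicate 1 of MEKi/L the counts were the same and the median was −1.27. The falls numbered 10 without 2i/L replicate 3, and 11 without 2i/L replicate 2 or under quantile normalization. Of the 13 falls, 8 held, while Fgf5, Pou3f1, Car4, Lef1 and Utf1 each lost their call in at least 1 alternative. Lef1 is also in the Wnt list and Utf1 in the general list. Otx2, a homeobox factor that leads cells into the formative state, had 58.3, 34.8 and 42.3 RPM in 2i/L against 140.4, 127 and 123 RPM in MEKi/L (log2 difference −1.56 ± 0.29, limma adjusted p = 0.003). Zic2 and Zic5, zinc finger factors of the primed state, fell too. Zic2 averaged 8.87 ± 2.55 RPM in 2i/L and 29.5 ± 11.4 RPM in MEKi/L, and Zic5 4.25 ± 0.74 RPM in 2i/L and 13.2 ± 3.37 RPM in MEKi/L (SD, n = 3 each).

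Low-level members of the formative list moved the same way. Sox3, a neural and primed SOX factor, had 0.08, 0.08 and 0.13 RPM in 2i/L against 2.09, 0.65 and 0.57 RPM in MEKi/L. Fgf5, the classic marker of primed cells, had 0 reads in 2i/L and 1.14, 0.58 and 0.38 RPM in MEKi/L, at least 3-fold lower. Its call was lost without 2i/L replicate 3, with a pseudocount of 0.5 or 1 RPM, and under quantile normalization (adjusted p = 0.05). Pou3f1 (Oct6) averaged 0.51 ± 0.19 RPM in 2i/L and 2.87 ± 1.58 RPM in MEKi/L, and lost its call only without 2i/L replicate 2 among the alternatives. Fgf15, Tcf15 and Sox4 also fell and kept their calls throughout. Etv4 rose, but lost its call under 10 of the alternatives. Adjusted for the score, 14 members fell and 0 rose.

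Among 15 genes that write or keep DNA methylation, Dnmt3l and Dnmt3a fell, none rose and 13 did not pass. Dnmt3l, the cofactor of the de novo methyltransferases (chr10:78041947-78063622, GRCm38, plus strand), had 13.6, 11.3 and 4.03 RPM in 2i/L against 209.5, 126 and 127 RPM in MEKi/L. The highest 2i/L library was far below the lowest MEKi/L library, and the log2 difference was −4.13 ± 0.35 (limma adjusted p = 7.6e-06). Dnmt3a, a de novo methyltransferase, had 9.22, 13.9 and 13.4 RPM in 2i/L against 62.5, 36.6 and 37.0 RPM in MEKi/L (log2 difference −1.87 ± 0.28, limma adjusted p = 0.00073). Dnmt3b, the other one, had 79.9, 103 and 57.9 RPM in 2i/L against 131, 58.7 and 77.0 RPM in MEKi/L, and its groups overlapped (adjusted p = 0.84, limma). Dnmt3l and Dnmt3a kept their calls in each of the 19 alternatives.

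Maintenance genes had no call. Dnmt1, which copies methylation after replication, averaged 466 ± 5.04 RPM in 2i/L and 297 ± 128 RPM in MEKi/L, and Uhrf1, which recruits it, 625 ± 66.7 RPM in 2i/L and 399 ± 130 RPM in MEKi/L (SD, n = 3 each). For both genes the groups did not overlap, and neither passed (limma adjusted p = 0.17 and 0.15). Without MEKi/L replicate 1 both were higher in 2i/L, with adjusted p of 0.038 and 0.048 (limma), and 3 members of the list rose and 2 fell. That fit cannot tell the medium from the score of long minus short transcripts. Adjusted for the score, 0 rose and 4 fell. Of 17 demethylation genes, only Gadd45a passed. This stress gene averaged 21.2 ± 5.75 RPM in 2i/L and 39.0 ± 5.96 RPM in MEKi/L, and lost its call without 2i/L replicate 1, MEKi/L replicate 2 or MEKi/L replicate 3; adjusted for the score, 3 members fell. The oxidase Tet1 averaged 383 ± 42.5 RPM in 2i/L and 371 ± 211 RPM in MEKi/L, and Tet2 141 ± 15.4 RPM in 2i/L and 108 ± 35.5 RPM in MEKi/L (SD, n = 3 each); neither passed.

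In a list of 8 genes, Prdm14 and genes of naive and germ cells, Kit rose and Dnd1 fell. Kit, the receptor for stem cell factor, had 441, 449 and 432 RPM in 2i/L against 227, 152 and 192 RPM in MEKi/L (log2 difference 1.23 ± 0.20, limma adjusted p = 0.0015). Dnd1, an RNA-binding protein of germ cells, averaged 7.498 ± 0.25 RPM in 2i/L and 17.1 ± 2.98 RPM in MEKi/L. Prdm14 itself, a repressor of Dnmt3 genes, had 71.3, 54.8 and 68.0 RPM in 2i/L against 64.5, 35.8 and 39.0 RPM in MEKi/L, overlapping and not passing (limma adjusted p = 0.17). Leaving out MEKi/L replicate 1 gave 2 rises and 1 fall in this list.

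**Figure D3:**
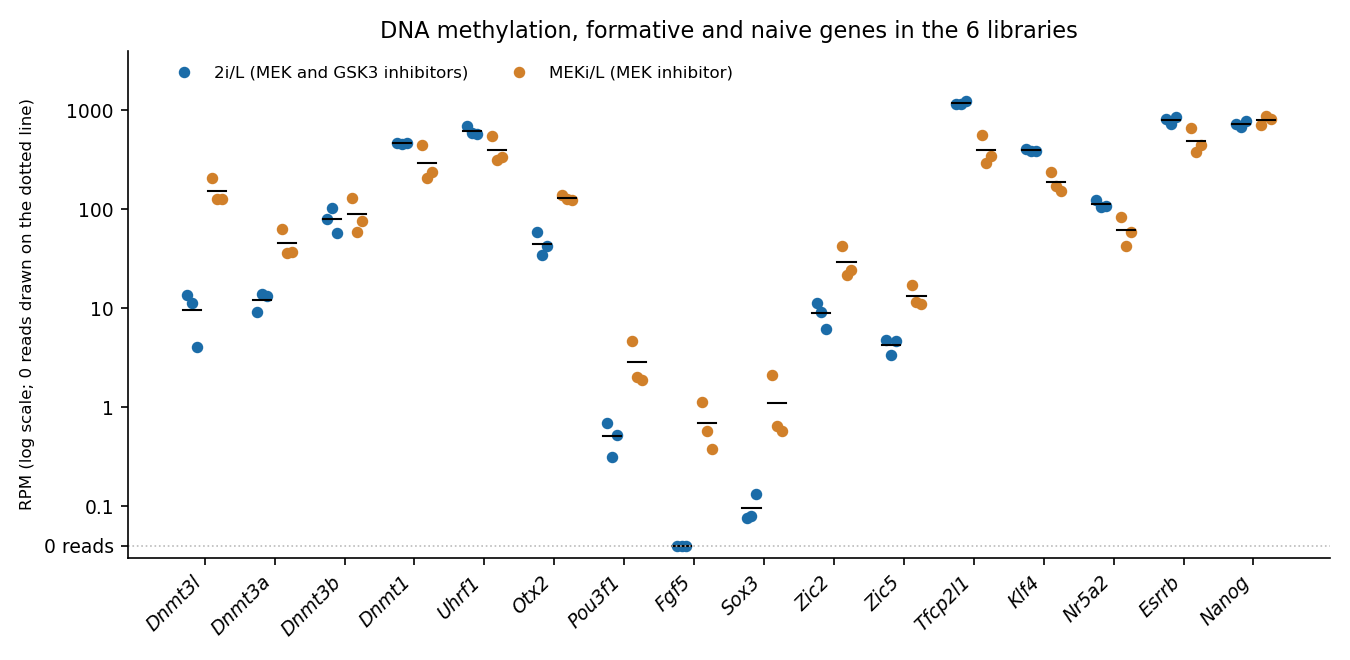
RPM on a log axis in each of the 3 libraries of 2i/L (left of each pair) and of MEKi/L, with short black lines at the means and 0 reads on the dotted line. Dnmt3l, Dnmt3a and the formative genes from Otx2 to Zic5 are lower in all 2i/L libraries, Dnmt3b overlaps, and Tfcp2l1 and Klf4 are higher in all 2i/L libraries.

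Both media held the MEK inhibitor at the same dose, so targets of the MEK-ERK cascade were examined for a further change. Of 23 tested, 2 rose, 4 fell and 17 did not pass, with a median log2 difference of −0.15 (0.12 after quantile normalization). Spred1, a feedback inhibitor, averaged 36.6 ± 4.79 RPM in 2i/L and 18.5 ± 3.20 RPM in MEKi/L, and rose (log2 difference 0.99 ± 0.19, limma adjusted p = 0.0039). Dusp5, an ERK phosphatase, had 0.91, 1.19 and 1.06 RPM in 2i/L against 3.30, 2.23 and 3.32 RPM in MEKi/L, and fell with Cited2 in each of the 19 alternatives. Dusp6, the phosphatase most used as a readout of ERK, averaged 8.70 ± 1.24 RPM in 2i/L and 16.3 ± 4.04 RPM in MEKi/L (limma adjusted p = 0.043); its call was lost without MEKi/L replicate 1 (adjusted p = 0.074) and when any 1 of 4 other libraries was left out. The list gave 3 rises and 3 falls without MEKi/L replicate 1, and 1 and 5 adjusted for the score. Only 2 members fell without 2i/L replicate 1 or MEKi/L replicate 2, and of the 2 rises only Spred1 held. Egr1 was at or below 1.02 RPM in all 6 libraries and Spry4 at or below 2.13 RPM.

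LIF was present in both media. Of 22 genes of the LIF-STAT3 pathway, 8 rose, 1 fell and 13 did not pass, with a median log2 difference of 0.50. Gbx2, Tfcp2l1 and Klf4, described above, are 3 of the 8. Osm, a cytokine of the LIF family, had 27.2, 28.5 and 29.0 RPM in 2i/L against 9.96, 9.71 and 12.3 RPM in MEKi/L, without overlap. Bcl3, a STAT3-induced cofactor, averaged 80.2 ± 3.81 RPM in 2i/L and 37.3 ± 13.1 RPM in MEKi/L (SD, n = 3 each). Osm and Bcl3 each lost their call without any single library other than MEKi/L replicate 1. Of the 8, only Gbx2 and Tfcp2l1 held in each of the 19 alternatives. The counts were 9 and 1 without MEKi/L replicate 1, while 3 or 4 rose when any other of the 6 libraries was left out.

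Regulators of the first gap phase of the cell cycle rose in part. Of 21 tested, 4 rose, 1 fell and 16 did not pass, with a median log2 difference of 0.02. Cdk6, a cyclin D-dependent kinase, had 15.9, 17.4 and 18.9 RPM in 2i/L against 1.90, 1.58 and 2.65 RPM in MEKi/L (log2 difference 3.12 ± 0.22, limma adjusted p = 1.8e-06). Cdkn1a, the inhibitor p21, had 223, 273 and 334 RPM in 2i/L against 87.0, 83.5 and 81.0 RPM in MEKi/L (log2 difference 1.70 ± 0.31, limma adjusted p = 0.0026). Cdkn1c, the imprinted inhibitor p57, fell to 4.10 ± 0.33 RPM in 2i/L, against 12.9 ± 2.97 RPM in MEKi/L (SD, n = 3 each). Of 20 p53 targets, Cdkn1a was the one that rose, and Fas and Eda2r passed as lower. Both lost that call without 2i/L replicate 1 or 2 or MEKi/L replicate 2 or 3, and 4 members fell without MEKi/L replicate 1. In the cell cycle list, 5 rose and 2 fell without MEKi/L replicate 1, 6 and 2 adjusted for the score, and 2 rose without MEKi/L replicate 2 or 3.

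Enzymes of the methionine and betaine pathway, which supplies methyl groups, rose or did not pass. Of 20 tested, 6 rose, 0 fell and 14 did not pass, with a median log2 difference of 0.43. Dmgdh, which oxidises dimethylglycine, had 99.1, 96.0 and 89.6 RPM in 2i/L against 18.3, 18.1 and 18.5 RPM in MEKi/L. The groups lay far apart, with a log2 difference of 2.37 ± 0.21 (limma adjusted p = 9.1e-06). Cbs, which feeds homocysteine into cysteine synthesis, averaged 196 ± 34.8 RPM in 2i/L and 44.98 ± 7.10 RPM in MEKi/L, and Bhmt2, which remethylates homocysteine, 36.6 ± 1.51 RPM in 2i/L and 9.30 ± 1.63 RPM in MEKi/L (SD, n = 3 each). Tdh, the threonine dehydrogenase of mouse ES cells, averaged 579 ± 80.2 RPM in 2i/L and 326 ± 52.7 RPM in MEKi/L, and lost its call when any 1 of 4 libraries was left out. When MEKi/L replicate 1 was left out, 8 members rose and 1 fell.

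Some lysosomal genes rose, by small factors, and most did not pass. Of 29 tested, 9 rose, 0 fell and 20 did not pass, with a median log2 difference of 0.48. Without MEKi/L replicate 1, 12 rose and 0 fell, with a median of 0.59, and adjusted for the score 14 rose. The count was 4 without MEKi/L replicate 2 or 3 and 5 without 2i/L replicate 3. Hexa, a hexosaminidase, had 208, 163 and 262 RPM in 2i/L against 98.0, 104 and 98.7 RPM in MEKi/L (log2 difference 1.05 ± 0.21, limma adjusted p = 0.0043). The protease Ctsb averaged 198 ± 14.4 RPM in 2i/L and 103 ± 14.7 RPM in MEKi/L (SD, n = 3 each). Hexa, Ctsb and Atp6v1a held in each of the 19 alternatives. Of 21 genes of glycogen metabolism, the process for which GSK3 was named, 4 rose and 0 fell. The count was 2 or 1 when any library other than MEKi/L replicate 1 was left out, and Phka2, Ppp1r3b and Gaa were the members that lost their calls. Pgm1, phosphoglucomutase, averaged 91.1 ± 4.97 RPM in 2i/L and 49.3 ± 6.95 RPM in MEKi/L, and held throughout. Adjusted for the score, 3 members rose and 1 fell.

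Glycolysis and hypoxia genes gave 1 rise and 3 falls of 26, with a median of −0.13. Those counts were 2 and 4 without MEKi/L replicate 1, and 1 and 6 adjusted for the score. The 3 that fell are hypoxia-induced: Bnip3, a mitophagy receptor, averaged 8.06 ± 5.55 RPM in 2i/L and 51.8 ± 14.4 RPM in MEKi/L, Slc16a3, a lactate exporter, 17.4 ± 11.7 RPM in 2i/L and 68.2 ± 19.5 RPM in MEKi/L, and Egln3, an oxygen-sensing hydroxylase, 1.42 ± 0.38 RPM in 2i/L and 5.91 ± 1.80 RPM in MEKi/L (SD, n = 3 each). All 3 held in each of the 19 alternatives. Slc2a3, a glucose transporter, averaged 1728 ± 68.6 RPM in 2i/L and 837 ± 204 RPM in MEKi/L, and its call was lost without any single library other than MEKi/L replicate 1. Of 25 cholesterol synthesis genes, Ebp alone passed, at 34.9 ± 1.27 RPM in 2i/L and 15.4 ± 2.69 RPM in MEKi/L; adjusted for the score, 2 rose and 1 fell.

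The genes of this paragraph are passing members of the primitive endoderm and fibroblast lists, and not a list of their own. Col4a1, a chain of type IV collagen, had 7.70, 8.22 and 7.94 RPM in 2i/L against 196, 92.1 and 88.9 RPM in MEKi/L (log2 difference −3.88 ± 0.36, limma adjusted p = 1.5e-05). Its neighbour and partner chain Col4a2 averaged 5.61 ± 0.28 RPM in 2i/L and 47.8 ± 22.7 RPM in MEKi/L (SD, n = 3 each). Lama1, a laminin chain of the same membrane, rose instead, at 259, 288 and 335 RPM in 2i/L against 157, 72.5 and 77.5 RPM in MEKi/L. Its call was lost without MEKi/L replicate 2 or 3. The fibrillar collagens Col1a1 and Col3a1 rose at low levels: Col1a1 averaged 6.68 ± 0.96 RPM in 2i/L and 1.68 ± 0.66 RPM in MEKi/L, and Col3a1 1.85 ± 0.17 RPM in 2i/L and 0.14 ± 0.14 RPM in MEKi/L (SD, n = 3 each).

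Among markers of other cell types, calls went both ways in each list, and not all of them held. In the primitive endoderm list, 1 gene rose and 2 fell of 14 tested, the genes Lama1, Col4a1 and Col4a2 above; 2 rose and 2 fell without MEKi/L replicate 1, and 1 and 3 adjusted for the score. The list summed to 781 to 895 RPM in 2i/L and 648 to 1017 RPM in MEKi/L, mostly Sparc and Lama1. Gata6 and Sox17 stayed at or below 0.65 and 0.47 RPM, and Afp had 0 reads. In the trophoblast list, 2 rose (Cdx2 and Tead4) and 1 fell of 12, with sums of 188 to 202 RPM in 2i/L and 121 to 175 RPM in MEKi/L, and Tpbpa, Plac1 and Prl3d1 had 0 reads. Cdx2 held, Tead4 and Krt19, the gene that fell, did not, and the counts were 3 and 1 without MEKi/L replicate 1 and 2 and 2 adjusted for the score. In the fibroblast list, 5 rose and 2 fell of 19, with sums of 1755 to 2036 RPM in 2i/L and 604 to 1481 RPM in MEKi/L, mostly Fn1; Twist2, Lum and Dcn had 0 reads. Col1a1 and Col3a1 held, while Col1a2, Postn, Acta2, Thy1 and Twist1 each lost their call in at least 1 alternative. The counts were 6 and 1 without MEKi/L replicate 1 and 5 and 1 adjusted for the score, 2 to 3 rose without 2i/L replicate 1 or 3 or MEKi/L replicate 2 or 3, and 0 fell without 2i/L replicate 1 or MEKi/L replicate 2. In the neural list, 2 rose and 5 fell of 16, with sums of 164 to 196 RPM in 2i/L and 216 to 370 RPM in MEKi/L, and Six6, Vax1 and Neurog2 had 0 reads; without MEKi/L replicate 1, 2 rose and 2 fell. Adjusted for the score 1 rose and 7 fell, and 1 fell without 2i/L replicate 2 or 3 or MEKi/L replicate 3. Lmx1b, a homeobox gene of the midbrain, had 0.38, 0.40 and 0.79 RPM in 2i/L against 8.82, 5.25 and 5.50 RPM in MEKi/L and held throughout. Gbx2, described above, rose and held, while the rise of En2 did not. Hesx1, Rax, Tubb3 and En1 fell and each lost their call in at least 1 alternative. The part of other cell types in these results was not tested.

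**Figure D4:**
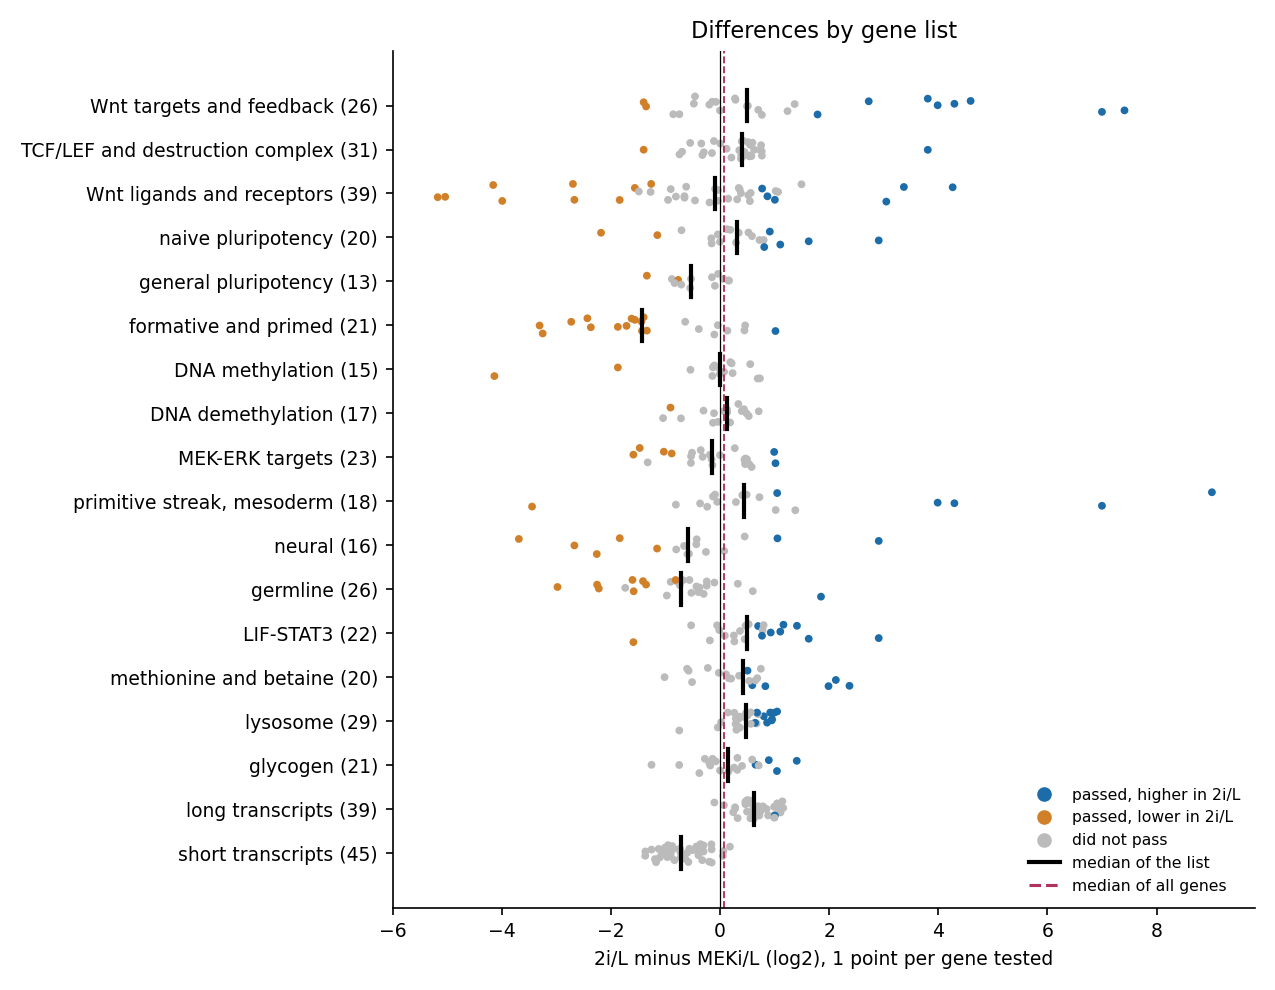
Each point is a tested member of a list, placed by its log2 difference, 2i/L minus MEKi/L; colours mark members that passed, black bars the medians of the lists and the dashed line the median of all genes, 0.07. Formative and primed genes have a median of −1.43. Long and short transcripts have medians of 0.62 and −0.72, and in their score MEKi/L replicates 2 and 3 lay apart from MEKi/L replicate 1 and from 2i/L.

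Levels in the other media place the genes of the comparison. These are descriptions only, since the authors had matched the columns of GSK3i/L at 8 days and S/L to 1 shared distribution and had left the other columns plain. Nkx1-2 averaged 35.3 ± 2.92 RPM in 2i/L and 0 RPM in MEKi/L, with 11.5 ± 2.55 RPM in GSK3i/L at 8 days, 8.03 ± 0.03 RPM at 24 days and 0.03 ± 0.05 RPM in S/L. Axin2 averaged 67.0 ± 9.65 RPM in 2i/L and 4.87 ± 1.35 RPM in MEKi/L. Elsewhere Axin2 had 49.1 ± 11.3 RPM in GSK3i/L at 8 days, 23.9 ± 2.38 RPM at 24 days and 5.32 ± 0.99 RPM in S/L (SD, n = 3 each, and n = 2 at 24 days). For both genes, the means of the 3 groups that received CHIR99021 lay above those of the 2 that did not.

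Dnmt3l and Dmgdh had mean levels in 2i/L outside the range of the other groups. Dnmt3l averaged 9.63 ± 4.98 RPM in 2i/L and 154 ± 48.0 RPM in MEKi/L; its mean was 169 ± 11.5 RPM in GSK3i/L at 8 days, 129 ± 11.2 RPM at 24 days and 264 ± 50.9 RPM in S/L. Dmgdh averaged 94.9 ± 4.83 RPM in 2i/L and 18.3 ± 0.21 RPM in MEKi/L; elsewhere it had 8.27 ± 0.12 RPM in GSK3i/L at 8 days and 0.67 ± 0.23 RPM in S/L. MEKi/L stood apart instead for Cdk6, at 17.4 ± 1.49 RPM in 2i/L and 2.05 ± 0.55 RPM in MEKi/L; it had 23.9 ± 3.71 RPM in GSK3i/L at 8 days and 14.6 ± 2.58 RPM in S/L. Col3a1 was at 1.85 ± 0.17 RPM in 2i/L and 0.14 ± 0.14 RPM in MEKi/L but at 86.7 ± 36.6 RPM in GSK3i/L at 8 days and listed at 0 at 24 days. Differences between these groups were not tested here.

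**Figure D5:**
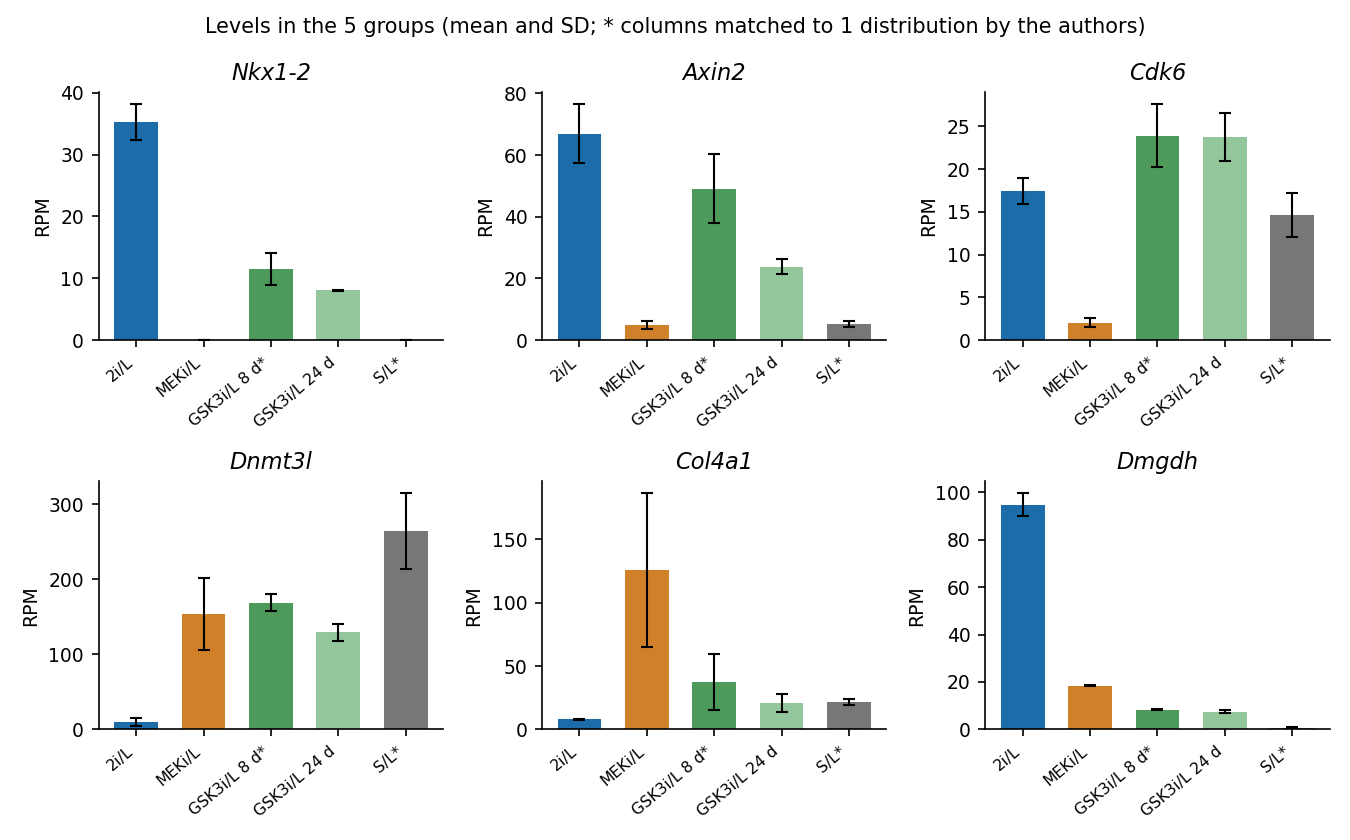
Bars give mean RPM and error bars the SD in 2i/L, MEKi/L, GSK3i/L at 8 and at 24 days and S/L (3 libraries each, 2 at 24 days); an asterisk marks columns that the authors matched to 1 distribution. Nkx1-2 and Axin2 are high where CHIR99021 was given, Dnmt3l is low in 2i/L alone and Col4a1 is highest in MEKi/L.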

How the data were processed

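Poly(A) RNA of E14 cells was made into strand-specific libraries and read as 50-base single ends, per the labels' protocols. Trim Galore (0.6.5), HISAT2 and GRCm38 are named, per the submitters' processing notes, with no counting options or annotation. The authors deposited log2 RPM for 25965 genes. In the 8 plain columns, at least 99.96% of linear values were whole multiples of 1 read (within 0.02 of a read), and 0 reads stood at 0.9 of a read; these were taken as 0 RPM for means ± SD. The remaining 6 columns, of S/L and of the 8-day GSK3i/L cells, share 1 distribution.

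Genes with at least 0.5 RPM in 3 libraries (14980) were tested with limma 3.58.1 in R 4.3.3 (trend and robust variances), all 14 libraries in 1 fit with group as only term, because the values were log2 and not counts. The script was tested on simulated data with the same spread in all libraries and no outlying replicate. That test therefore does not cover a library such as MEKi/L replicate 1. Lists give counts at an adjusted p under 0.05 with no minimum fold. Members and lists (38) were chosen with earlier results of these data known. Named genes are the 15 largest rises and falls with at least 2-fold change, no overlap and 5 RPM, all members of 7 lists, and up to 4 passing members each way of the others; a few members that did not pass are named besides, chosen after their values were seen. Folds against 0 reads use a floor of 3 reads per library and cover counting error only.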

Additional observations from a re-analysis of the deposited data

How the results depend on the processing

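The counts of genes at least 2-fold higher and lower were 479 and 793. They stayed within 1.5 times of these under fits to the 6 libraries or the 8 plain ones, no filter or a stricter one, a pseudocount of 0.5 RPM, centring, trimmed scaling, quantile normalization, voom on the recovered reads and the score covariate. With a pseudocount of 1 RPM the lower count was 474. Leaving out 1 library at a time gave 297 to 868 higher and 466 to 1323 lower genes. The extremes were 868 and 1323 without MEKi/L replicate 1, 297 higher without MEKi/L replicate 3 and 466 lower without MEKi/L replicate 2. In a fit of 5 libraries without MEKi/L replicate 1, an alternative added after the data were seen, the counts were 1018 and 1636. The cause of these shifts was not tested.

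Same-numbered libraries of the 2 media had deviations correlated at 0.05, 0.07 and −0.01, against −0.17 to 0.11 for other pairs. These values do not settle whether replicate numbers pair the libraries. In fits of the 6 libraries the 2-fold counts were 544 and 917, and 582 and 1161 with a replicate block. Of 168 named or listed genes that passed, 95 kept their call in each alternative that tested them, and none turned its sign. The alternatives reuse the libraries in which these genes passed. The stricter filter on low values tested 152 of the 168. Without MEKi/L replicate 1, 157 kept it; without any other single library, between 111 and 127 did. Levels under the floor of 3 reads per library, 0.19 to 0.28 RPM, could not be told from 0 at this depth.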

Other observations

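Germline genes whose promoters are known to be methylated in somatic cells fell in 8 of 26 cases and rose in 1 in 2i/L, with a median log2 difference of −0.71. Only 2 of the 8 falls, Mael and Taf7l, held in each of the 19 alternatives, and the rise did not. The falls numbered 2 without MEKi/L replicate 2, 3 without 2i/L replicate 2, 4 without MEKi/L replicate 3, 5 without 2i/L replicate 1 or adjusted for the score, and 7 without MEKi/L replicate 1. Mael, a factor of the piRNA pathway, had 2.97, 2.21 and 5.89 RPM in 2i/L against 12.9, 16.4 and 19.8 RPM in MEKi/L (log2 difference −2.25 ± 0.43, limma adjusted p = 0.0038). Sycp3, of the synaptonemal complex, averaged 15.8 ± 2.90 RPM in 2i/L and 50.5 ± 21.3 RPM in MEKi/L (SD, n = 3 each), and lost its call without MEKi/L replicate 2. Of 33 imprinted genes, 5 rose, 3 fell and 25 did not pass; 6 fell without MEKi/L replicate 1 or adjusted for the score, and 1 without 2i/L replicate 3. Plagl1, a zinc finger gene, had 12.4, 13.4 and 15.9 RPM in 2i/L against 1.78, 1.44 and 1.42 RPM in MEKi/L (log2 difference 3.17 ± 0.56, limma adjusted p = 0.0024), and Igf2 averaged 9.31 ± 1.40 RPM in 2i/L and 3.65 ± 0.45 RPM in MEKi/L. Of 10 tested genes of the 2-cell-like state, AU015836 fell, with 1 read in 2i/L and 75 reads in MEKi/L.

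Polycomb genes gave 2 calls of 29, in opposite directions, and 5 rises and 2 falls without MEKi/L replicate 1. Adjusted for the score they gave 1 rise and 2 falls. Phf19, a PRC2 accessory subunit that binds methylated H3K36, had 2.74, 3.16 and 3.84 RPM in 2i/L against 31.4, 31.5 and 23.1 RPM in MEKi/L (log2 difference −3.14 ± 0.27, limma adjusted p = 7.6e-06). Phc2, a PRC1 subunit, averaged 45.4 ± 0.83 RPM in 2i/L and 11.6 ± 1.71 RPM in MEKi/L. Lefty1, a target and inhibitor of Nodal, fell, averaging 13.9 ± 3.44 RPM in 2i/L and 67.1 ± 26.3 RPM in MEKi/L (SD, n = 3 each), while Nodal itself did not pass. Of 16 Nodal pathway genes 0 rose and 2 fell, 1 and 2 without MEKi/L replicate 1, and 0 and 5 adjusted for the score. Of 19 BMP genes, Id2 fell and Smad9 rose (4 rises and 2 falls without MEKi/L replicate 1). Retinoic acid carriers Crabp2 and Crabp1 were the 2 falls of 15 (4 adjusted for the score), and Crabp1 lost its call in at least 1 alternative. Among 29 junction genes 3 rose and 4 fell, among 24 ATF4 genes Asns rose and Atf3 fell, among 25 Myc and nucleolar genes Mxd4 fell, and none of the 10 mitochondrially encoded genes passed. Without MEKi/L replicate 1 the junction list gave 6 rises and 4 falls, the ATF4 list 3 and 1, and the Myc and nucleolar list 3 and 0. Adjusted for the score, the ATF4 list gave 1 rise and 0 falls and the Myc and nucleolar list 0 and 2. Atf3 and Mxd4 lost their calls in several alternatives. Median differences by chromosome lay between −0.10 on chromosome 14 and 0.12 on chromosome 16 for the nuclear chromosomes.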
